A study of Mus musculus with 24 samples.

Results

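The ISG15 conjugation system was represented by 5 genes, *Isg15*, *Uba7*, *Ube2l6*, *Herc6* and *Usp18*, out of 55487 genes in the count table. They were taken by gene symbol, as members of the pathway, with earlier results of these data known. Expression was measured by BRB-seq, which sequences the 3′ ends of pooled and barcoded mRNAs, in AML-12 cells, an established line of mouse hepatocytes derived from mice that carry a transforming growth factor alpha transgene. The 24 libraries formed 6 groups of 4. BSA and PAL cells were not transfected: BSA cells were given the albumin carrier alone, and PAL cells 0.25 mM of palmitate, the saturated fatty acid that served to model steatosis. The remaining groups had 0.25 mM palmitate too, and were transfected with lipofectamine and an esiRNA (small interfering RNA prepared with an endoribonuclease) 24 hours before collection. The target was *Egfp*, a gene that is not in the mouse genome, in CON (200 nM), *Bmal1* in BMAL1 (100 nM), *Chrebp* in CHREBP (100 nM), and both *Bmal1* and *Chrebp* in BOTH (200 nM in total). The medium of the steatosis model lacked dexamethasone and contained serum stripped with charcoal and dextran. The labels do not say that the 4 libraries of a group came from separate cultures, so p-values measure the spread between these libraries, which may be technical.

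ISG15 is a small protein related to ubiquitin that cells attach to other proteins during an interferon response. UBA7 activates it as the E1 enzyme, UBE2L6 carries it as the E2 enzyme, and HERC6 is the main ligase that transfers it to substrates in mice. USP18 cleaves ISG15 from its substrates and also binds the type I interferon receptor, where it dampens signalling. The pathway is best known for its antiviral role, and hepatocytes are among the cells that respond to type I interferon.

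The genes lie on 4 chromosomes of GRCm38, and all are protein coding. *Isg15* (ENSMUSG00000035692) is at chr4:156199424-156200818 on the − strand. The other genes are on the + strand: *Uba7* (ENSMUSG00000032596) at chr9:107975505-107984060, *Ube2l6* (ENSMUSG00000027078) at chr2:84798828-84810335, *Herc6* (ENSMUSG00000029798) at chr6:57581000-57664632 and *Usp18* (ENSMUSG00000030107) at chr6:121245906-121270917. *Uba7*, *Herc6* and *Usp18* each shared exon bases with a further annotated gene, but those genes held 1, 1 and 9 counts over all 24 libraries. RefSeq promoter windows on GRCm38.p6, from 250 bases before to 50 bases after the start, were found for 4 of the 5 genes, and *Usp18* was not matched.

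The promoters were searched on both strands for the core of the interferon-stimulated response element, GAAANNGAAA, to which transcription factors activated by interferon bind. This core was present in 3.44% of 32851 promoters. The *Isg15* window held 3 overlapping matches, starting 78, 72 and 66 bases before the start. *Uba7*, *Ube2l6* and *Herc6* had none, and *Uba7* had 1 match to the shorter form AAANNGAAA (10.6% of promoters), which also lies inside every match of the core. None of the 4 windows held TTCNNNGAA, the interferon gamma activated site (8.3% of promoters), or CACGTG, the canonical E-box of clock factors (7.15% of promoters). The bases before the starts of *Isg15*, *Ube2l6* and *Herc6*, and the 30 bases around the match of *Uba7*, are shown. These transcripts were all called higher in CHREBP and in BOTH against CON, by different factors, while their promoters differed in these letters. Capitals mark the matches. The *Uba7* match lies inside the gene span of GENCODE, which starts upstream of the RefSeq start.
*Isg15*, chr4:156200819-156200968, − strand: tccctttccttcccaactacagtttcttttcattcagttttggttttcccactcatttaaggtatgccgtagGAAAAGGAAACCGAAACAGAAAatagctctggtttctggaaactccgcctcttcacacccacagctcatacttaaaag
*Uba7*, chr9:107975530-107975559, + strand: ctcagtctagTTTCACTTTtggtttcctga
*Ube2l6*, chr2:84798678-84798827, + strand: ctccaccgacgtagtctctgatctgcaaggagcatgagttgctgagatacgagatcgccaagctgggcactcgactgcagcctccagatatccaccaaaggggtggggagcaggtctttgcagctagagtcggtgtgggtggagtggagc
*Herc6*, chr6:57580842-57580991, + strand: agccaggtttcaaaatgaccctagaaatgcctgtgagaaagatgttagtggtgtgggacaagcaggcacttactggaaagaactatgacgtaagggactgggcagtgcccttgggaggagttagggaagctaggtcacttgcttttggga

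A library held between 5399700 and 11237474 gene counts, so 3 counts, the smallest number treated as detectable, corresponded to 0.267 to 0.556 CPM, which are counts scaled by the library total. All 16 hepatocyte markers had counts, and their summed level was 7004 to 8509 CPM. Some were near absent: *Tat* and *Cps1* had summed counts under 25 in PAL with BSA, in CON with PAL and over the esiRNA groups. *Apoa2* was under 25 in PAL with BSA. *Krt8* and *Krt18* were also in this list. The share of each gene in the sum is not given here, so the sum does not show that each marker was well expressed. The summed level of 12 leukocyte and macrophage markers was 1.85 to 5.01 CPM, with *Adgre1*, *Clec4f*, *Cd3e*, *Ncr1* and *Itgax* among those at 0 in every library. That of 10 stellate, fibroblast and endothelial markers was 0.142 to 3.68 CPM. The targeted transcripts were weakly expressed. The log2 fold change of *Bmal1* (*Arntl* in the table, 15 to 85 counts) in BMAL1 against CON was -0.78 (SE 0.28, with no *Padj* after independent filtering in DESeq2). That of *Chrebp* (*Mlxipl*, 12 to 89 counts) in CHREBP against CON was -0.46 (SE 0.28, *Padj* = 0.593). In BOTH against CON both were called lower, *Bmal1* at -0.98 (SE 0.28, *Padj* = 0.00994) and *Chrebp* at -1.07 (SE 0.30, *Padj* = 0.00762). The paper reports successful silencing of both genes from its transcriptome data and by quantitative PCR. By the library positions in the labels, column 1 held BSA and PAL, column 2 held CON and BMAL1, and column 3 held CHREBP and BOTH. Where a group with *Chrebp* esiRNA is set against one without, column and *Chrebp* esiRNA therefore cannot be told apart, and in CON or BMAL1 against PAL or BSA neither can column and transfection.

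In untransfected cells the system was weakly expressed, and no change with palmitate was detectable. Values are normalized counts, which are counts divided by the size factor of the library, for replicates 1 to 4 of a group. No library of BSA or PAL had a count of *Isg15*, and 3 counts per library would correspond to a mean of 3.10 normalized counts in BSA and 3.17 in PAL. *Usp18* was 7.71, 14.5, 5.41 and 8.49 in BSA and 2.64, 3.02, 4.47 and 10.1 in PAL. These values overlapped, and the log2 fold change was -0.76 (SE 0.65, DESeq2 *Padj* = 0.556). It was -0.44 without BSA replicate 2 and -1.40 without PAL replicate 4. *Uba7* ran from 42.4 to 70.7 in BSA and 38.3 to 73.4 in PAL, *Ube2l6* from 18.0 to 39.6 and 18.1 to 34.7, and *Herc6* from 16.2 to 25.5 and 19.8 to 30.3. Their log2 fold changes were 0.07 (SE 0.25, *Padj* = 0.928), -0.21 (SE 0.34, *Padj* = 0.803) and 0.31 (SE 0.35, *Padj* = 0.698). *Isg15* was not tested, because its summed count was under 25. Of the 4 genes tested, 0 passed *Padj* under 0.1 with DESeq2, 0 had an unadjusted p under 0.05, and 0 passed with edgeR. Over all 12827 genes tested, 14.3% were called in this comparison.

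**Figure D1:**
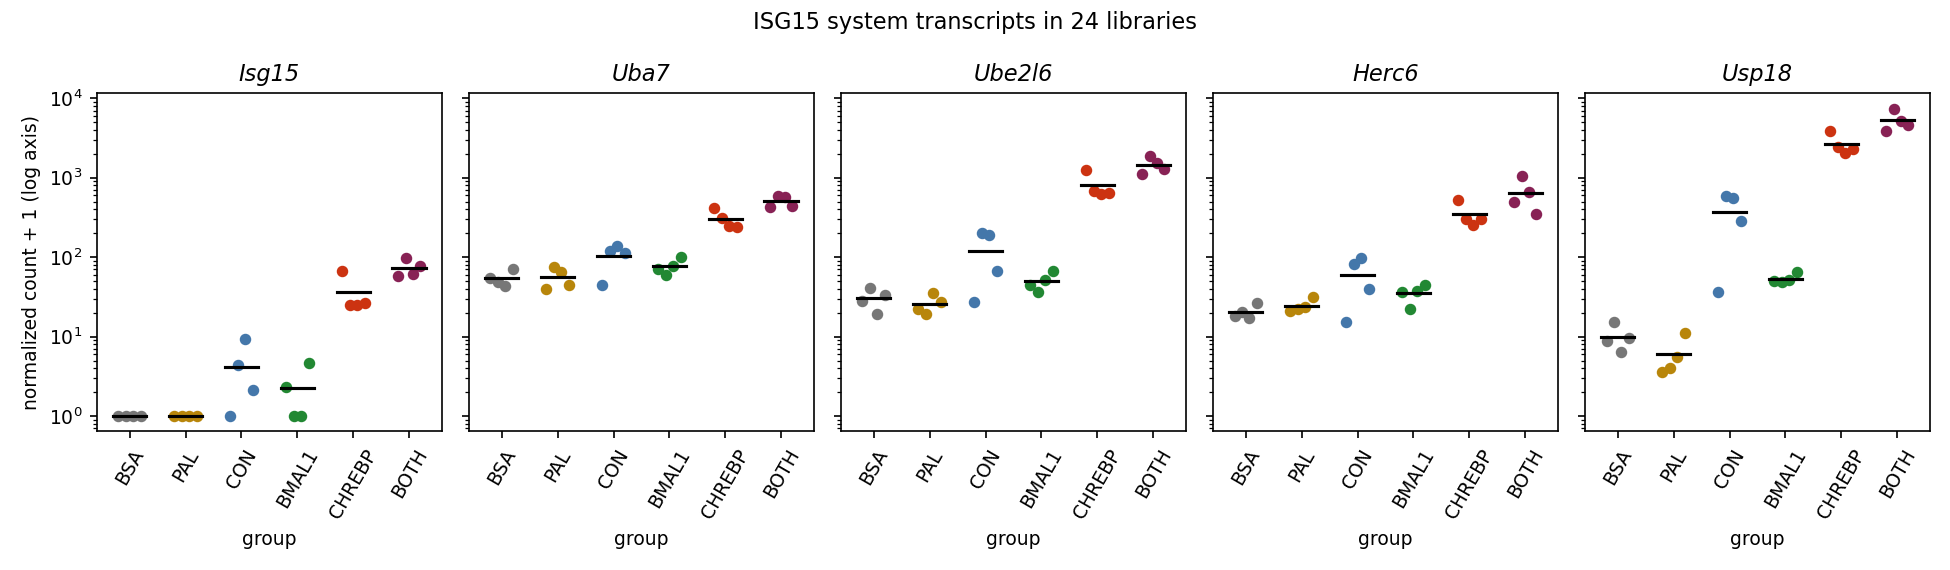
Normalized counts plus 1 (log axis) of the 5 genes in each of the 24 libraries, as points from replicate 1 on the left to replicate 4 on the right, with the group mean as a bar. In every panel the CHREBP and BOTH libraries lie above all others, and CON replicate 1 lies below the other 3 CON libraries.

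Cells given the control esiRNA had more *Usp18* and *Ube2l6* transcript than cells given palmitate alone, and their libraries differed widely from one another. *Usp18* was 35.0, 579, 562 and 286 in CON, above every PAL library. The mean was 366 ± 258 (SD, n = 4) against 5.06 ± 3.46 in PAL, a 70.6-fold difference (log2 fold change 6.14, SE 0.91, DESeq2 *Padj* = 1.15e-08). Without PAL replicate 4 the log2 fold change was 6.75. *Ube2l6* was 26.0, 202, 187 and 66.1 in CON and 21.1, 18.1, 34.7 and 26.4 in PAL. Replicate 1 of CON lay within the PAL range, and the log2 fold change was 2.26 (SE 0.66, *Padj* = 0.0362). This call was lost without PAL replicate 1 (*Padj* = 0.157), PAL replicate 2 (0.14), PAL replicate 4 (0.154), CON replicate 2 (0.257) or CON replicate 3 (0.256). In bulk RNA, a response in fewer cells and less RNA per responding cell cannot be told apart.

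The E1 and the ligase were not called in CON against PAL. *Uba7* was 43.1, 117, 137 and 111 in CON and 38.3, 73.4, 64.9 and 44.3 in PAL, with a log2 fold change of 0.89 (SE 0.41, *Padj* = 0.384). *Herc6* was 14.4, 80.9, 97.9 and 38.3 in CON and 19.8, 21.1, 22.4 and 30.3 in PAL, with a log2 fold change of 1.30 (SE 0.59, *Padj* = 0.365). For both genes, CON replicate 1 lay within or below the PAL range and the other 3 CON libraries lay above it. *Isg15* was 0, 3.37, 8.23 and 1.16 in CON, with a mean of 3.19 ± 3.64 that was at the detection floor, and it was not tested. In all, 2 of the 4 genes tested were called higher, against 1.59% of 12928 genes, and *Usp18* alone did not overlap, against 4.18%. Without CON replicate 1, all 4 were called, at log2 fold changes of 6.48 for *Usp18*, 2.60 for *Ube2l6*, 1.62 for *Herc6* and 1.14 for *Uba7*.

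*Bmal1* esiRNA was accompanied by a lower level of *Usp18* than control esiRNA. *Usp18* was 48.9, 47.8, 50.8 and 64.0 in BMAL1, a mean of 52.9 ± 7.51 (SD, n = 4), which is 6.92-fold lower than in CON (log2 fold change -2.79, SE 0.57, DESeq2 *Padj* = 0.00132). The BMAL1 libraries were close to each other, and CON replicate 1 at 35.0 lay below them all. They were also above every PAL library, with a log2 fold change against PAL of 3.33 (*Padj* = 5.48e-05 in the fit of all 24 libraries, where 3.01% of 14511 genes were called). *Bmal1* esiRNA was given at 100 nM and control esiRNA at 200 nM.

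The other 4 genes did not pass in BMAL1 against CON. *Ube2l6* was 43.4, 35.1, 50.8 and 66.7 in BMAL1 (log2 fold change -1.30, SE 0.51, *Padj* = 0.392), and *Herc6* was 35.3, 21.2, 36.4 and 43.9 (-0.76, SE 0.51, *Padj* = 0.839). *Uba7* was 69.2, 59.5, 75.7 and 99.6 (-0.43, SE 0.31, *Padj* = 0.855), and *Isg15* was 1.36, 0, 0 and 3.66 (-1.37, SE 0.83, no *Padj*). The *Isg15* value was -0.38 without CON replicate 3 and -3.07 without BMAL1 replicate 4. In each of the 4 genes the BMAL1 range overlapped the CON range. The count was thus 1 of 5 genes lower, against 0.324% of 13883 genes. Without CON replicate 1 it was 3, with *Ube2l6* at -1.63 (*Padj* = 0.00924) and *Uba7* at -0.68 (*Padj* = 0.0941) as the added genes.

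All 5 transcripts rose in CHREBP against CON, and no library of either group overlapped the other. *Isg15*, the modifier, was 66.4, 24.1, 23.8 and 25.5 in CHREBP, with replicate 1 apart from the other 3. Its mean was 35.0 ± 21.0 (SD, n = 4) against 3.19 ± 3.64 in CON, a 10.3-fold difference (log2 fold change 3.37, SE 0.53, DESeq2 *Padj* = 4.42e-08). Without CON replicate 3, which held most of the *Isg15* counts of its group, the log2 fold change was 4.36. Against the untransfected groups, where all libraries were at 0, *Isg15* in CHREBP was at least 11.3-fold higher than in BSA and at least 11.0-fold higher than in PAL, with the floor of 3 counts set in each library.

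The enzymes that activate, carry and transfer ISG15 rose by different factors. *Uba7* was 415, 312, 243 and 241 in CHREBP, 2.95-fold above CON (log2 fold change 1.56, SE 0.30, *Padj* = 2.57e-05). *Ube2l6* was 1266, 671, 625 and 637, which is 6.62-fold above CON (2.73, SE 0.50, *Padj* = 5.83e-06), again with replicate 1 apart. *Herc6* was 519, 304, 254 and 302, which is 5.93-fold above CON (2.57, SE 0.50, *Padj* = 3.08e-05). Each lowest CHREBP library exceeded the highest CON library of the same gene.

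The protease was also higher. *Usp18* was 3918, 2448, 2045 and 2290 in CHREBP, with a mean of 2676 ± 845 (SD, n = 4), 7.30-fold above CON (log2 fold change 2.87, SE 0.56, *Padj* = 3.79e-05). Over all 13883 genes tested, 2.65% were called higher in CHREBP against CON, and 5.01% were higher with no overlap. Replicate 1 of CHREBP was the highest of its group in all 5 genes, and without it all 5 remained called, with log2 fold changes of 1.37 for *Uba7*, 2.30 for *Herc6*, 2.42 for *Ube2l6*, 2.63 for *Usp18* and 2.86 for *Isg15*. Unaligned reads made up between 25.8% and 26.7% in CHREBP, 24.9% to 26.3% in BOTH and 26.7% to 27.5% of a library in CON, and their part in these differences was not tested. *Bmal1* esiRNA and *Chrebp* esiRNA were both given at 100 nM. In that comparison, CHREBP against BMAL1, all 5 genes were higher without overlap (2.90% of all genes were called higher, and 5.05% were higher with no overlap), at log2 fold changes of 4.73 for *Isg15* (SE 0.75), 5.66 for *Usp18* (SE 0.57), 1.99 for *Uba7* (SE 0.31), 4.02 for *Ube2l6* (SE 0.51) and 3.33 for *Herc6* (SE 0.51). Without BMAL1 replicate 4, the *Isg15* value was 6.44.

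**Figure D2:**
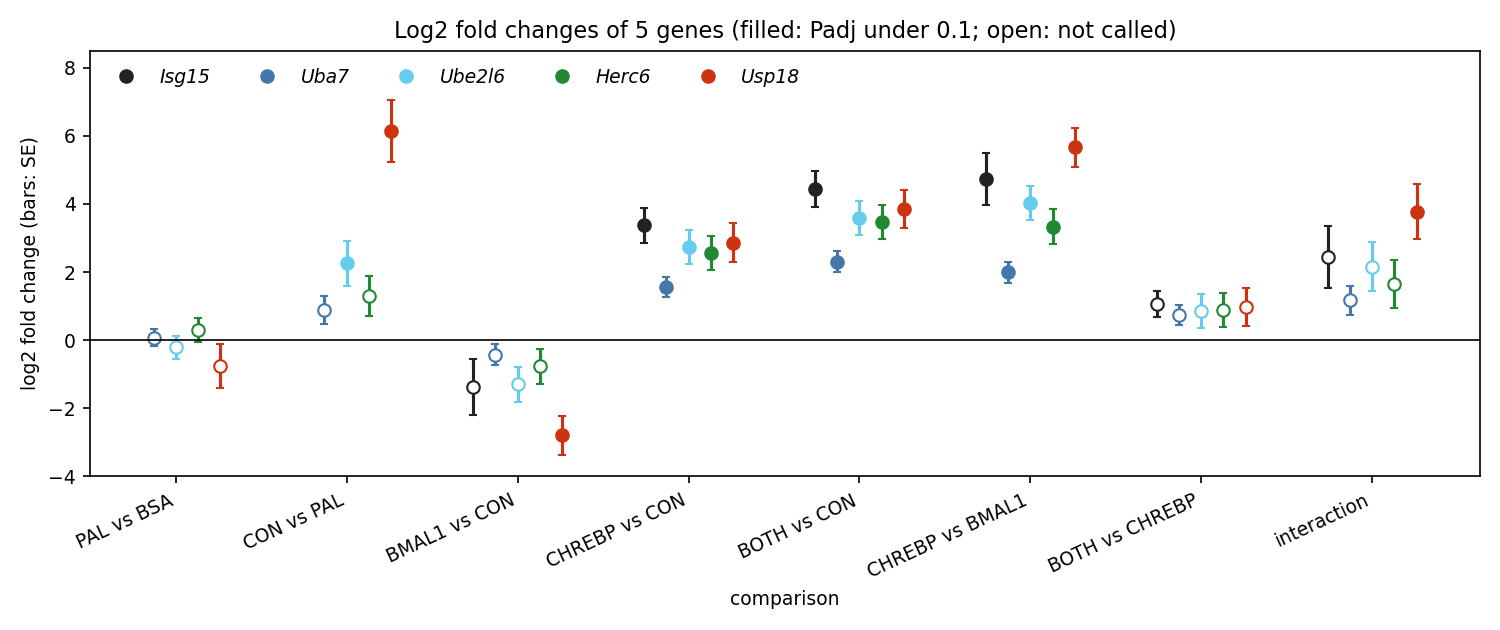
Log2 fold changes (vertical axis, points with SE bars) of the 5 genes in 7 comparisons and the interaction, which is BOTH minus CHREBP, less BMAL1 minus CON. Filled points passed *Padj* under 0.1, open points did not, and *Isg15* has no point in the first 2 comparisons. All 5 points are filled in CHREBP vs CON, BOTH vs CON and CHREBP vs BMAL1, and *Uba7* is the lowest of the 5 in each of these.

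The combined esiRNAs gave the highest mean of every gene. *Isg15* was 56.4, 96.3, 61.2 and 76.8 in BOTH, a mean of 72.7 ± 18.0 (SD, n = 4) and 21.7-fold above CON (log2 fold change 4.44, SE 0.52, DESeq2 *Padj* = 3.11e-15). Without CON replicate 3 the value was 5.43. It was at least 23.4-fold above BSA and at least 23.0-fold above PAL. *Usp18* was 3898, 7348, 5215 and 4656, which is 14.4-fold above CON (3.85, SE 0.56, *Padj* = 7.65e-10). Every BOTH library exceeded every CON library in both genes.

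The enzymes showed the same order of groups. *Uba7* was 428, 590, 567 and 445 in BOTH, 4.94-fold above CON (log2 fold change 2.31, SE 0.30, *Padj* = 2.09e-12). *Ube2l6* was 1121, 1869, 1542 and 1284, which is 12.0-fold above CON (3.59, SE 0.50, *Padj* = 6.31e-11). *Herc6* was 491, 1054, 664 and 349, which is 11.0-fold above CON (3.46, SE 0.50, *Padj* = 4.00e-10). All 5 genes were called higher without overlap at this matched total dose of 200 nM, against 5.99% of all genes called higher and 6.42% higher without overlap. In BOTH against BMAL1, where 6.35% of all genes were called higher, the log2 fold changes of the 5 genes ran from 2.73 for *Uba7* to 6.64 for *Usp18*, all called. The *Isg15* value there was 5.80, and 7.51 without BMAL1 replicate 4.

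BOTH and CHREBP were in the same library column, and their difference was not called for any gene with DESeq2. The log2 fold changes were 1.07 for *Isg15* (SE 0.39, no *Padj*), 0.98 for *Usp18* (SE 0.56, *Padj* = 0.655), 0.74 for *Uba7* (SE 0.30, *Padj* = 0.332), 0.86 for *Ube2l6* (SE 0.49, *Padj* = 0.655) and 0.89 for *Herc6* (SE 0.49, *Padj* = 0.635). The groups overlapped in 4 genes, while every BOTH library of *Uba7* exceeded every CHREBP library (1.94% of all genes). The count was 0 of 5, against 0.843% of all genes called higher, with 2 genes at an unadjusted p under 0.05 (*Isg15*, 0.00598, and *Uba7*, 0.0118) and 0 called with edgeR. In a fit of the 8 libraries of these groups alone, 2 genes were called, *Uba7* at *Padj* = 0.00729 and *Usp18* at *Padj* = 0.0968. The share of all genes called in that fit is not given here, and the 0.843% belongs to the fit of 16 libraries. Without CHREBP replicate 1, *Isg15* was called at 1.58 (*Padj* = 0.00153). CHREBP received 100 nM of esiRNA and BOTH received 200 nM.

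In the fit of all 24 libraries, the order of the group means was the same for the 5 genes down to BMAL1, with BOTH first, then CHREBP, CON and BMAL1, while BSA and PAL came last. CHREBP and CON were the neighbours that differed in all 5 genes (DESeq2 *Padj* from 1.37e-07 for *Ube2l6* to 0.000382 for *Isg15*, with 3.71% of 14511 genes called). CON and BMAL1 differed only for *Usp18* (*Padj* = 0.000297, 0.648% of genes called), as did BMAL1 and BSA where they were neighbours (*Padj* = 0.000806, 7.16%). BMAL1 and PAL, neighbours for *Uba7* and *Herc6*, were not called for either, and *Isg15* had no *Padj* in CON against BMAL1 or BOTH against CHREBP. BSA and PAL were called for none of the 5 (12.3% of genes called). BOTH and CHREBP were not called for any of the 4 genes with a *Padj* in this DESeq2 fit (1.16%), although the *Uba7* libraries did not overlap, and edgeR called *Uba7* (adjusted p = 0.0988).

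The interaction, which compares the change with *Bmal1* esiRNA in cells that had *Chrebp* esiRNA and in cells that had not, was called for *Usp18* alone. The total esiRNA dose fell from 200 nM in CON to 100 nM in BMAL1 and rose from 100 nM in CHREBP to 200 nM in BOTH, so an interaction of the esiRNAs and these opposite steps in dose cannot be told apart. *Usp18* was 6.92-fold lower with *Bmal1* esiRNA in the absence of *Chrebp* esiRNA and had a log2 fold change of 0.98 in its presence, and the interaction was 3.77 on the log2 scale (SE 0.80, DESeq2 *Padj* = 0.00186). The interaction values were 2.44 for *Isg15* (SE 0.91, no *Padj*), 2.16 for *Ube2l6* (SE 0.71, *Padj* = 0.105), 1.65 for *Herc6* (SE 0.71, *Padj* = 0.351) and 1.17 for *Uba7* (SE 0.43, *Padj* = 0.197). The *Isg15* value was 1.45 without CON replicate 3 and 4.14 without BMAL1 replicate 4. The interaction was called for 1 of 5 genes, against 1.20% of all genes called higher. The count rested on single libraries: it was 5 without CON replicate 1, 4 without CHREBP replicate 1 and 2 without CON replicate 4. The likelihood ratio test over the 4 esiRNA groups called all 5 genes (*Padj* from 1.44e-30 for *Isg15* to 5.25e-16 for *Herc6*), against 9.92% of all genes.

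In the transfected groups, the same library was often the highest or the lowest for all 5 genes. CON replicate 1 was the lowest and CON replicate 4 the next lowest for each of them, and the highest CON library exceeded the lowest by 16.5-fold for *Usp18*, 7.77-fold for *Ube2l6*, 6.81-fold for *Herc6* and 3.19-fold for *Uba7*. BMAL1 replicate 4, CHREBP replicate 1 and BOTH replicate 2 were each the highest of their group in all 5 genes. In BSA, replicate 3 was the lowest for all 4 genes that had counts. In PAL, no library was the highest or the lowest for all 4. BOTH replicate 2 also had the lowest share of unaligned reads, 24.9%, with BOTH replicate 4 next at 24.9%, and the highest share outside annotated genes, 6.47%.

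The balance between the protease and the modifier was measured in each library as log2 of the normalized count plus 1 of *Usp18* minus that of *Isg15*, and the outcome depended on the pseudocount and scale. With the pseudocount of 1 used here, none of 5 comparisons passed an adjusted p of 0.1. With a pseudocount of 1 on TMM-scaled CPM, 3 passed: CHREBP against CON at 1.42 (adjusted exact permutation p = 0.0952), BOTH against CON at 1.41 (adjusted exact p = 0.0714) and CON against PAL at 3.92 (adjusted exact p = 0.0714). On normalized counts, its mean was 6.30 ± 0.92 in CON, 6.32 ± 0.32 in CHREBP and 6.15 ± 0.21 in BOTH (SD, n = 4). The difference from CON was 0.02 in CHREBP (2-sided exact permutation p = 0.971, adjusted 0.971 over 5 tests) and -0.15 in BOTH (exact p = 0.857, adjusted 0.971). Neither sign was stable: the difference in CHREBP was -0.36 with a pseudocount of 0.5, and that in BOTH 1.05 with a pseudocount of 5. *Isg15* had 0 to 10 counts per library in CON and 0 to 4 in BMAL1, so the ratio there rests largely on the pseudocount. In BMAL1 the mean was 4.88 ± 0.93, a difference from CON of -1.43 (exact p = 0.114, adjusted 0.238). In PAL it was 2.45 ± 0.73 and in BSA 3.25 ± 0.53, where *Isg15* was at 0 and the value is that of *Usp18* alone. PAL differed from BSA by -0.80 (exact p = 0.143, adjusted 0.238). CON differed from PAL by 3.85 (exact p = 0.0286, the smallest that 4 against 4 libraries can give, adjusted 0.143). At that limit, whether the adjusted p over 5 tests passes depends on the other comparisons.

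Relative to *Uba7*, which had counts in every library, *Usp18* changed over a wide range. This ratio was added after the data were seen and is given with no test. The log2 ratio was -2.64, -1.67, -2.76 and -2.92 in BSA and -3.43, -4.21, -3.59 and -2.03 in PAL. In CON it was -0.29, 2.29, 2.02 and 1.36, with replicate 1 near the BMAL1 values of -0.49, -0.31, -0.57 and -0.63. In CHREBP it was 3.23, 2.97, 3.07 and 3.24, and in BOTH it was 3.18, 3.64, 3.20 and 3.39. The CHREBP and BOTH libraries thus lay together, above all CON libraries, with means of 3.13 ± 0.13 and 3.35 ± 0.21 (SD, n = 4).

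**Figure D3:**
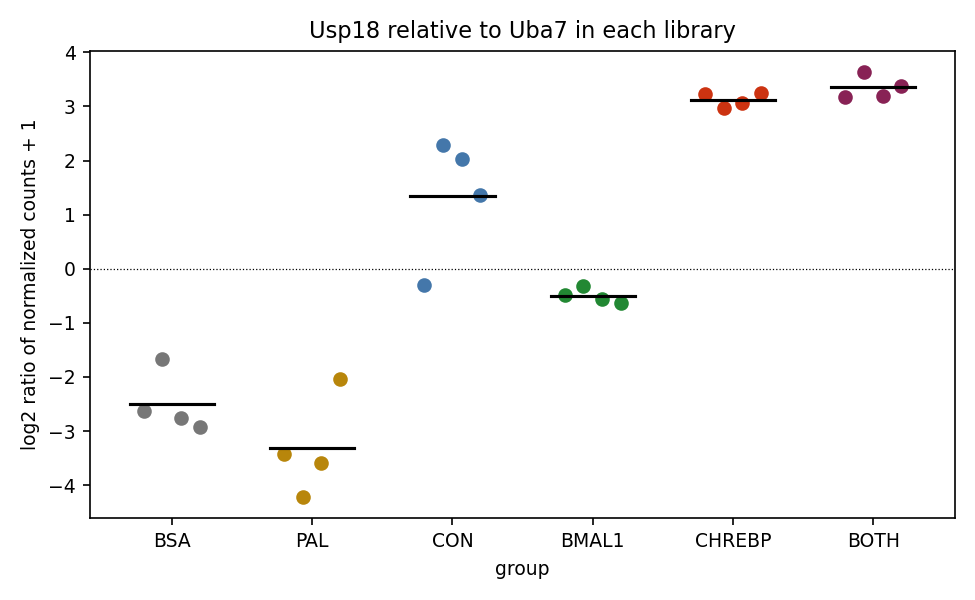
Log2 ratio of *Usp18* to *Uba7* (normalized counts plus 1) in each library, as points from replicate 1 on the left to replicate 4 on the right, with the group mean as a bar and a dotted line at 0. CON spreads from -0.29 to 2.29, while the 8 libraries of CHREBP and BOTH lie between 2.97 and 3.64.

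Related genes of ubiquitin and other ubiquitin-like proteins were counted in the same way. In 5 lists of 56 such genes (other modifiers, E1 enzymes, E2 enzymes, HERC and other ligases reported for ISG15, and other proteases reported to act on it), 54 were tested. In CHREBP against CON, where 2.65% of all genes were called higher, 1 was called, the ligase *Trim25*, which ubiquitinates RIG-I and is itself induced by interferon, at 0.74 on the log2 scale (SE 0.13, *Padj* = 4.66e-06 with DESeq2). The median over the 54 was 0.03, beside -0.0037 over all genes and 2.73 over the 5 genes of the ISG15 system. *Ube2l3*, the E2 nearest in name to *Ube2l6*, was at 0.03 (SE 0.07, *Padj* = 0.955), with 629 to 1355 counts per library. *Herc3* was at -0.10 (SE 0.13, *Padj* = 0.914).

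In CON against PAL, 3 of the 54 were called higher with DESeq2 and 2 with edgeR (1.59% of all genes with DESeq2), *Trim25* at 0.54 and *Gabarap* at 0.23 among them. In BOTH against CON, 3 of the 54 were called higher, near the 5.99% of all genes, with *Trim25* (1.05) and *Mocs3* (0.54) among them, and 1 was lower, *Usp2*, a deubiquitinase (-3.08, SE 1.18, *Padj* = 0.094). With edgeR 3 were called in that comparison. The shares of all genes called lower with DESeq2, or called with edgeR, are not given here, so both of these counts are descriptions only. In BMAL1 against CON, where 0.324% of all genes were called lower, 0 of the 54 were called with DESeq2 and 0 with edgeR, with 1 at an unadjusted p under 0.05. In PAL against BSA, 5 of the 54 were called with DESeq2 and 6 with edgeR, a share below the 14.3% of all genes called with DESeq2. Those of DESeq2 were *Uba2*, *Ube2l3*, *Ube2r2* and *Usp14*, higher, and *Ube2h*, lower, by at most 0.22 on the log2 scale. In BOTH against CHREBP, 1 of the 54 was called with DESeq2, *Ubb* at 0.26 (0.843% of all genes were called higher), and 0 with edgeR, with 6 at an unadjusted p under 0.05. In BOTH against BMAL1, 7 of the 54 were called higher with DESeq2 (6.35% of all genes) and 6 were called with edgeR. Of those of DESeq2, *Trim25* was at 1.27 and the others at 0.34 or less. *Trim25* was named for its change in CHREBP against CON and *Ube2l3* and *Herc3* for their symbols, and the others were chosen after their values were seen.

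**Figure D4:**
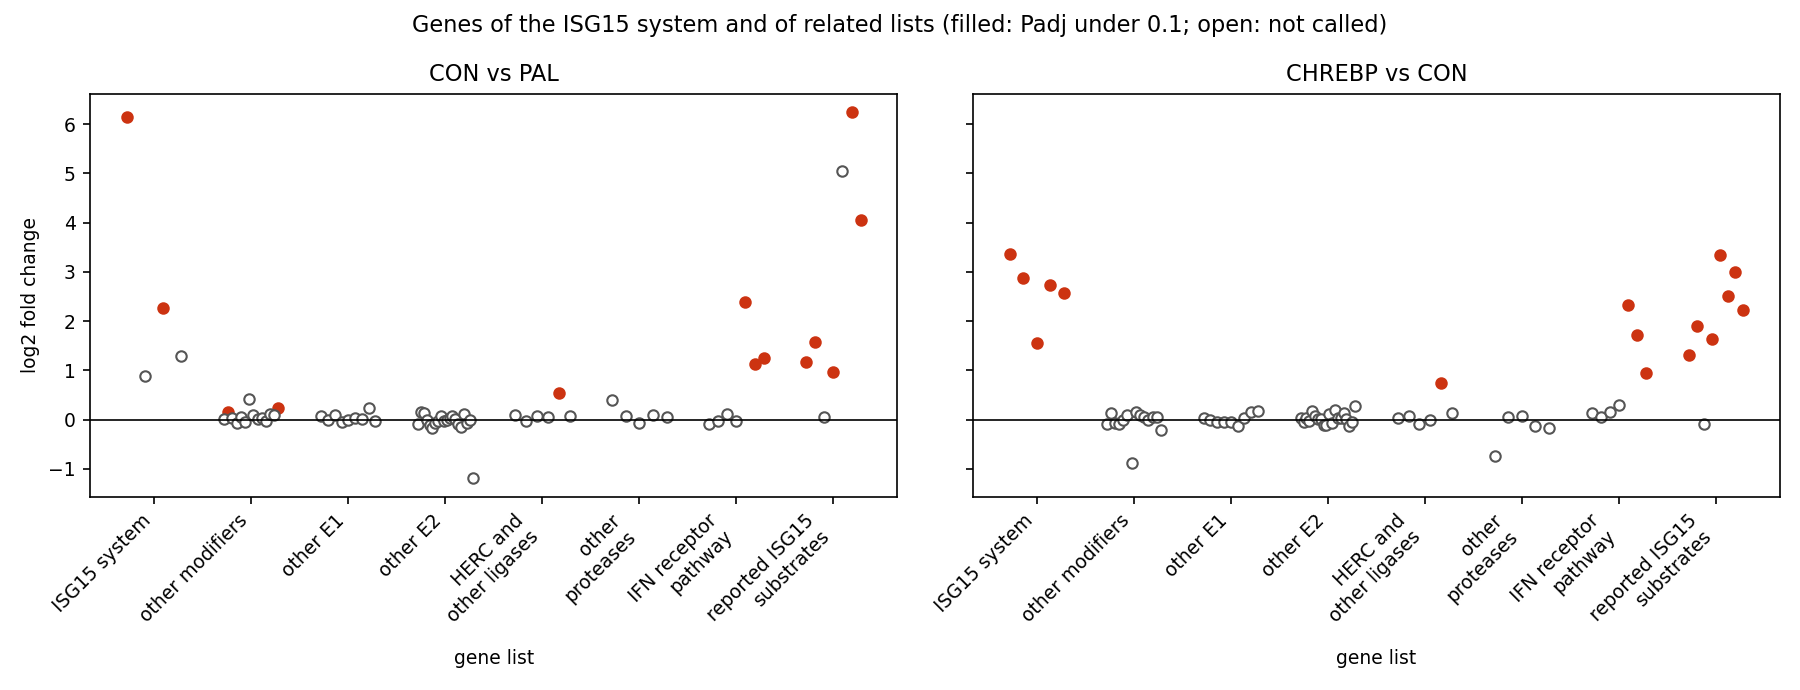
Log2 fold changes of each tested gene (points) of the ISG15 system and of 7 related lists, in CON vs PAL on the left and in CHREBP vs CON on the right. Filled points passed *Padj* under 0.1. In CHREBP vs CON the 5 genes of the ISG15 system lie between 1.56 and 3.37, while *Trim25* at 0.74 is the one filled point among the 5 lists of other ubiquitin-like enzymes.

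Some genes of the pathway upstream of the system were also called. In the type I interferon receptor pathway, *Stat2* (log2 fold change 1.71, SE 0.23) and *Irf9* (0.94, SE 0.20), which encode transcription factors of the pathway, were called higher in CHREBP against CON. Both were called higher in CON against PAL, at 1.13 and 1.26, and in BOTH against CON, at 2.42 and 1.11. The receptor subunits *Ifnar1* and *Ifnar2* were not called in CHREBP against CON. In PAL against BSA, *Ifnar2* (-0.60, *Padj* = 5.39e-10) and *Stat2* (-0.34, *Padj* = 0.0815) were called lower.

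Of 8 genes whose proteins are reported to carry ISG15, 7 were called higher in CHREBP against CON (2.65% of all genes), with a list median of 2.06. Among them were the antiviral effectors *Mx1* (log2 fold change 3.34, SE 0.96), *Ifit3* (*Padj* = 3.54e-06) and *Ifit1* (2.51, SE 0.49). *Irf3*, a transcription factor that is present before infection, was at -0.08 (SE 0.08, *Padj* = 0.851). In CON against PAL, 5 of the 7 tested were called higher (1.59% of all genes). In BMAL1 against CON, 2 of the 8 were called lower (0.324% of all genes), *Ifit3* (-2.45) and *Ifit1* (-2.16). In PAL against BSA, *Ifit1* alone of 6 tested was called, lower at -0.90 (DESeq2 *Padj* = 0.048, 14.3% of all genes called). Of 11 interferon genes, 1 was tested, *Ifnb1*, which encodes interferon beta. Summed over the 4 libraries of a group, BOTH held 77 of its counts, CHREBP 17, CON 5 and PAL 1, while BMAL1 and BSA held 0. Its log2 fold change was 2.05 in CHREBP against CON (SE 0.95, *Padj* = 0.339) and 4.21 in BOTH against CON (SE 0.90, *Padj* = 0.000101). The lists were chosen with earlier results of these data known, so their counts are descriptions.

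The likeness of other transcripts to each gene was measured as the mean absolute difference over the 24 libraries of log2(normalized count + 1), after each gene's own mean was removed, among 9376 genes with a mean of at least 50. Among the nearest to *Isg15* were *Ifit2* (0.49) and *Igtp* (0.50), and among the nearest to *Ube2l6* were *Igtp* (0.30) and *Mndal* (0.36). *Herc6* was nearest to *Tor3a* (0.30), *Ifi202b* (0.32) and *Ifi204* (0.33). *Uba7*, with the smaller range, was nearest to *Stat2* (0.24), *Helz2* (0.24) and *Ddx58* (0.24), and *Usp18*, with the wider range, to *Ifi44* (0.34), *Ifit1* (0.46) and *Oasl2* (0.49). The median difference over all candidates was 2.30 for *Isg15*, 2.16 for *Ube2l6*, 1.79 for *Herc6*, 1.14 for *Uba7* and 3.53 for *Usp18*. *Uba7* and *Usp18* were 2.40 apart on this measure, and *Isg15* and *Ube2l6* were 0.39 apart.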

How the data were processed

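BRB-seq libraries of AML-12 cells were analysed from the deposited table of raw counts per gene and library, in which the authors had not normalized or pooled replicates. The study's methods and the submitters' processing notes name STAR, HTSeq, featureCounts, DESeq2 and the mouse genome mm10. Versions and annotation release were not given in the sources used here, nor whether strand or molecular identifiers were used. Floors cover counting error only, while SE and SD include the spread between libraries. Groups came from the labels. All 5 genes and the gene lists were chosen with earlier results of these data known. By rule, the genes named besides the 5 were the targeted genes, up to 3 called genes per list with the largest change in CHREBP against CON, *Ube2l3*, *Herc3*, and the 3 genes most like each of the 5. Some genes chosen by this rule are not reported here. Other genes of the lists were named after their values were seen.

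DESeq2 1.42.0 in R 4.3.3 was run on genes whose counts in the fitted libraries summed to 25 or more. PAL against BSA and CON against PAL were fitted on 8 libraries each, and the esiRNA groups on 16 libraries with a shared dispersion, using the Wald test, the interaction, and a likelihood ratio test. A fit of 24 libraries ordered the groups. A gene was called where its p, adjusted by Benjamini-Hochberg over all genes tested (*Padj*), was under 0.1. Size factors of all 24 libraries gave the normalized counts. The ratio of *Usp18* to *Isg15* used a pseudocount of 1. Alternatives were edgeR 4.0.16, other size factors (TMM), no filter, a replicate block, other sets of libraries, other pseudocounts, and leaving out each library. The Wald test of DESeq2 and the edgeR test were checked on simulated counts, for PAL against BSA and CHREBP against CON only. Every simulated gene had the same low dispersion, and no changed gene had a low mean. The check therefore does not cover the wide spread of *Usp18* in CON or the low counts of *Isg15*. The interaction, the likelihood ratio test and the permutation test were not checked in this way. Positions were those of GENCODE M21 (GRCm38). The sequences of promoters came from RefSeq on GRCm38.p6. In HTSeq's summary lines, reads outside annotated genes were 5.11% to 6.47% and unaligned reads 24.9% to 28.0% of a library, and both were left out of library sizes. Pairs of libraries within a group differed by more than counting noise (chi-square per degree of freedom from 2.70 to 23.1), and each was counted as 1 replicate.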

Additional observations from a re-analysis of the deposited data

Results flagged for a closer look

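In CHREBP, replicate 1 was far from the other 3 libraries of its group for *Isg15* (66.4 normalized counts) and for *Ube2l6* (1266 normalized counts), by Dixon's test at 95%. Of 34 groups of 4 values examined in this way, chance alone would mark about 1 in 20. The interaction of *Bmal1* and *Chrebp* esiRNA for *Usp18*, 3.77 on the log2 scale, passed DESeq2's test of the difference itself (*Padj* = 0.00186). It cannot be told apart from the opposite steps in total esiRNA dose, 200 to 100 nM from CON to BMAL1 and 100 to 200 nM from CHREBP to BOTH.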

How the results depend on the processing

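All 5 genes were called in CHREBP against CON, BOTH against CON, CHREBP against BMAL1, BOTH against BMAL1 and the likelihood ratio test under every alternative run. In CON against PAL, 2 genes were called, 4 with a replicate block in edgeR (an alternative chosen after seeing the data), and 1 to 4 without single libraries. In BMAL1 against CON the count of 1 ran from 1 to 3 without single libraries. In BOTH against CHREBP the count of 0 became 2 when the 8 libraries of these groups were fitted alone, and ran from 0 to 1 without single libraries. For the interaction the count of 1 became 2 with edgeR, 2 without the filter and 2 with all 24 libraries, and ran from 1 to 5 without single libraries. PAL against BSA stayed at 0. The cause was not tested. The *Uba7* value in PAL against BSA, 0.07, changed sign without BSA replicate 3 (-0.03), PAL replicate 2 (-0.10) or PAL replicate 3 (-0.02), and ran from -0.10 to 0.21 without single libraries.

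The ratio of *Usp18* to *Isg15* moved with the pseudocount and the scale. TMM-scaled CPM, also with 1 added, changed both, since 1 CPM is several normalized counts, and their parts were not separated. In CHREBP against CON, 0.02 became -0.36 with a pseudocount of 0.5 and 1.42 with TMM-scaled CPM (adjusted exact permutation p = 0.0952), and ran from -0.36 to 0.27 without single libraries. In BOTH against CON, -0.15 became 1.05 with a pseudocount of 5 and 1.41 with TMM-scaled CPM (adjusted exact permutation p = 0.0714), and ran from -0.53 to 0.10. In CON against PAL, 3.85 became 3.92 with TMM-scaled CPM and passed the threshold (adjusted exact permutation p = 0.0714). The exact p of CON against PAL was already the smallest that 4 against 4 libraries can give. Its adjusted p therefore fell only through the p-values of the other comparisons. The number of neighbouring groups that differed was 7 with DESeq2 and 8 with edgeR.

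Replicate numbers did not pair the libraries: the correlations of same-numbered libraries were not all above 0.1. With DESeq2, the replicate block left the count of genes called unchanged in every comparison, but in CON against PAL it called *Uba7* (*Padj* = 0.0541) and not *Ube2l6* (1.90, *Padj* = 0.137). Depth limited *Isg15* most, with 11 of 24 libraries at 0 counts and 453 counts in all.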
